A study of Danio rerio with 24 samples.

Results

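Whole zebrafish embryos without ultraviolet exposure were compared at 48 h post fertilisation (hpf) between offspring of eevs mutant mothers (Meevs) and wild type. The comparison takes the mock-exposed libraries collected 24 h after the mock exposure, which was given at 24 hpf. It holds 6 of the 24 libraries of the series, 3 Meevs and 3 wild type, and every gene of the count table. The other 18 libraries are the mock groups at 29 hpf and the groups exposed to 450 J of UVB. They are used here to estimate the spread and to read the same genotype difference in other samples. The UVB groups also serve to choose genes that change between 29 and 48 hpf after exposure. All embryos, in both genotypes, were kept in the dark after exposure. Meevs names the genotype of the mother. Neither the lesion in eevs nor the genotype of the embryos themselves is given in the labels. Nor is it said whether the 3 libraries of a group came from different clutches, and the p-values therefore take in only the differences among these libraries, which could be technical. All Meevs libraries carry the name of one library series and all wild type libraries that of another, so genotype and library series cannot be told apart in any result below.

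Gadusol is a compound of fish eggs and embryos that absorbs UVB. The enzyme EEVS makes a cyclic precursor from sedoheptulose 7-phosphate, a sugar of the pentose phosphate pathway, and a second enzyme, encoded in zebrafish by the neighbouring gene zgc:113054, turns it into gadusol. Gadusol that a mother deposits in the egg can be present before the embryo makes its own. In unexposed embryos kept in the dark no UVB is there to be absorbed, so the comparison describes the baseline against which an exposure is read.

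Total counts lay between 29048782 and 33967831 in wild type and between 23652699 and 38286878 in Meevs, and 22340 of 23219 genes were tested after a filter on low counts. On log2 CPM (the count relative to the library's total after TMM scaling) the first principal component of the 6 libraries held 67.6% of the variance and placed all wild type libraries on one side and all Meevs libraries on the other. Long intergenic RNAs took 0.463% to 0.510% of the counts in wild type and 0.338% to 0.368% in Meevs, and mitochondrially encoded genes 2.72% to 2.88% and 2.34% to 2.69%. These were whole embryos, so fewer cells of a type and less RNA per cell cannot be told apart.

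The genotypes differed across much of the transcriptome. At an edgeR adjusted p under 0.05, 11771 of 22340 tested genes were called (52.7%), 5923 of them higher in Meevs (26.5%) and 5848 lower (26.2%). A difference of at least 2-fold was reached by 575 higher genes (2.57%) and by 1267 lower genes (5.67%). Nuclear genes of the respiratory chain and genes of ribosomal proteins were higher almost without exception, whereas the Argonaute genes, the vitamin D receptors and many neuronal and clock genes were lower. The 3 Meevs libraries all lay above the 3 wild type libraries in 6930 genes (31.0%) and all below them in 6815 (30.5%). Groups that did not overlap were thus common among all tested genes. Because every other gene was called, a list of genes is read below against these shares and against the median log2 fold change of all genes, 0.02.

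The direction of the difference moved with gene span, the distance from a gene's start to its end. In the 7853 genes spanning up to 10 kb the median log2 fold change was 0.28, with 39.3% called higher and 10.3% called lower. It was -0.01 in genes of 10 to 50 kb, -0.32 in those of 50 to 100 kb and -0.43 in those of 100 to 200 kb. In the 472 genes over 200 kb it was -0.47, with 3.60% called higher and 63.8% called lower. Short genes thus lay mostly above zero and long genes mostly below it. What part gene span has in the result of a list was not tested, but a fit with span as an offset, chosen after seeing the data, gave 5530 higher and 5160 lower genes, 8379 of them called without it too, and its counts stand beside each list where it moved a count by over 1.5 times or turned the balance of higher and lower members.

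**Figure D1:**
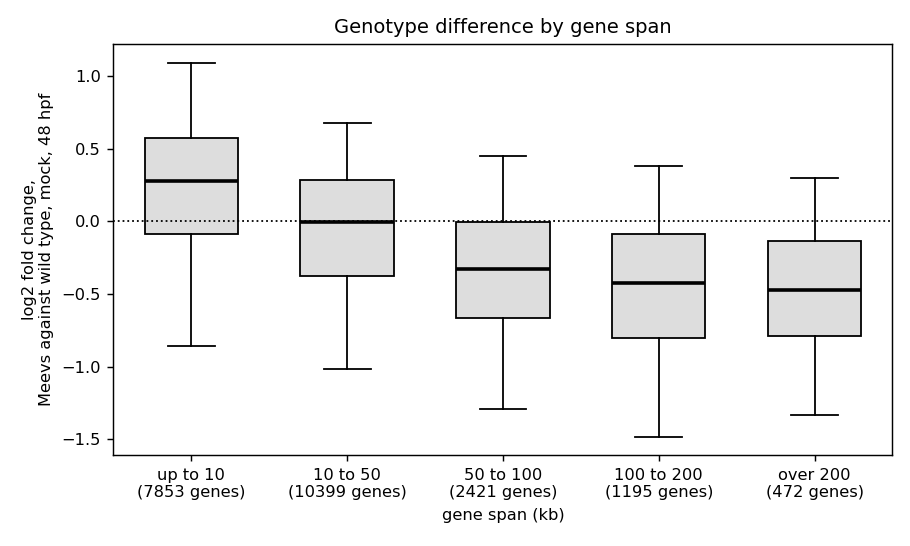
Log2 fold change of Meevs against wild type in mock embryos at 48 hpf (vertical axis) for all 22340 tested genes in 5 classes of gene span in kb (horizontal axis). Boxes give the quartiles with the median as a thick line and whiskers the 5th and 95th percentiles; the median went from 0.28 in the shortest class to -0.47 in the longest.

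The gene eevs itself (ENSDARG00000087873, chromosome 6, 43438074 to 43449013, GRCz11) was read at 0.645, 0.794 and 0.697 CPM in wild type and at 2.99, 1.51 and 3.08 CPM in Meevs. The groups did not overlap, at 22 to 25 counts per wild type library and 59 to 80 per Meevs library. Of all tested genes 31.0% had Meevs above without overlap. The gene eevs was higher in the offspring of mutant mothers by 1.80 ± 0.26 (log2 fold change ± SE, edgeR adjusted p = 3.34e-06). This level checks no label, since the label names the mother's genotype. The second gadusol gene, zgc:113054, was at 17.1, 18.9 and 16.3 CPM in wild type and 21.9, 20.5 and 20.9 CPM in Meevs. Its difference was small (0.27 ± 0.10, edgeR adjusted p = 0.0203) and was not called without wild type replicate 1 (adjusted p = 0.0638), without wild type replicate 3 (0.0889) or without Meevs replicate 1 (0.0630).

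Along the chromosome around eevs, 29 tested genes had their start within 1 Mb, of which 13 were higher and 8 lower. So 72.4% were called there, against 52.7% of all tested genes. The median log2 fold change in the region was 0.20, against 0.02 for all genes. On either side of the gadusol pair lie mitfa, the master regulator of melanophores (0.43 ± 0.13), and foxp1b, a forkhead transcription factor gene (-0.69 ± 0.12). The gene foxp1b was not called with span as an offset (-0.16, edgeR adjusted p = 0.153). Farther out, 4 placeholder entries of clone BX005129 were higher by 1.25 to 1.67, with SE of 0.28 to 0.51. Their levels were low, with means of 0.149 to 0.685 CPM in wild type and 0.393 to 1.63 CPM in Meevs. The gene tcta was higher by 0.71 ± 0.09 and rybpb, whose product belongs to a polycomb complex, was lower by -0.45 ± 0.08. The count of 21 called genes fell to 14 without Meevs replicate 2, a fit that called 5280 higher and 5288 lower of 22617 tested genes. Of 9 genes listed for gadusol synthesis and for neighbours of its genes, some of which lie on other chromosomes in the deposited annotation, 5 were higher and 2 lower, 1 was lower without Meevs replicate 3, and the span offset gave 6 and 1. One listed gene elsewhere is uba3 on chromosome 11, for a subunit of the enzyme that activates NEDD8 (0.61 ± 0.06). Of the pentose phosphate pathway, which supplies the substrate of EEVS, 3 of 10 genes were higher and 3 lower, with a median of -0.08. That is 30.0% in each direction, against 26.5% and 26.2% of all genes. Lower were the glucose-6-phosphate dehydrogenase of the endoplasmic reticulum h6pd (-0.54 ± 0.10) and the transketolase tkta (-0.62 ± 0.17), and higher were the oxidative enzyme genes pgd (0.37 ± 0.07) and pgls (0.42 ± 0.12) and the epimerase rpe (0.34 ± 0.10). Neither tkta (edgeR adjusted p = 0.0661) nor rpe (0.531) was called with span as an offset, and rpe was not called without wild type replicate 1 (0.0511).

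**Figure D2:**
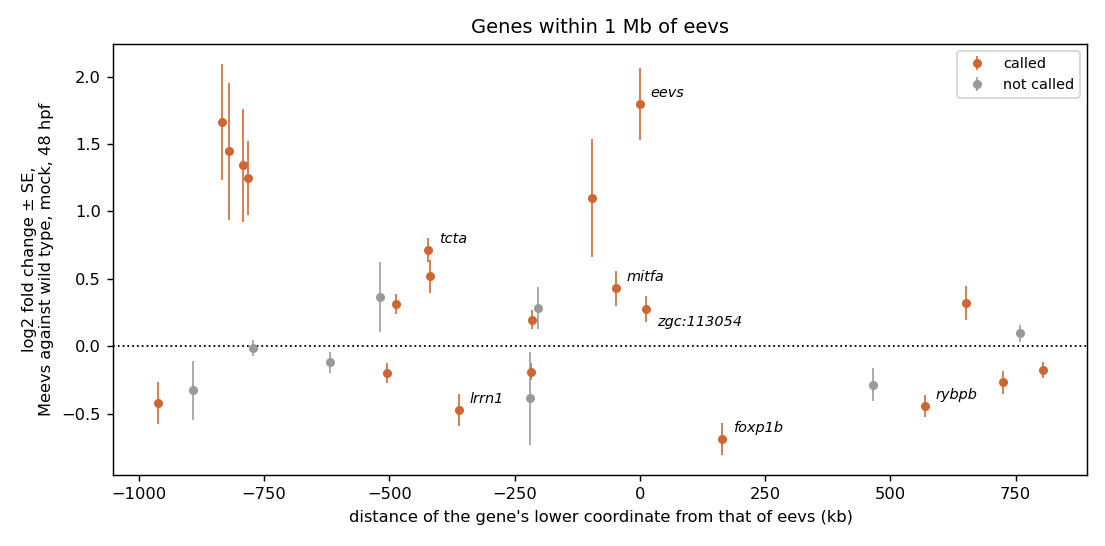
Log2 fold change ± SE (vertical axis) of the 29 tested genes within 1 Mb of eevs against the distance of their lower coordinate from that of eevs in kb (horizontal axis). Called genes are orange and the others grey; the 13 higher and 8 lower genes are mixed along the region, with eevs at 1.80 and foxp1b at -0.69.

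A vitamin D gene had the largest rise among the genes ranked by size as set out further on. The hormone 1,25-dihydroxyvitamin D acts through a nuclear receptor, which zebrafish has in a pair of copies, and induces its own breakdown through the hydroxylase encoded by cyp24a1. That gene (ENSDARG00000103277, chromosome 6, 55852274 to 55864687) stood at 1.21, 1.43 and 1.27 CPM in wild type and 9.76, 5.67 and 8.12 CPM in Meevs. It was higher in Meevs by 2.58 ± 0.21 (edgeR adjusted p = 7.11e-10). That every Meevs library lay above wild type was a condition of that ranking, met by 31.0% of all tested genes. Both receptor genes went the other way. The level of vdra was 2.28, 1.94 and 2.03 CPM in wild type and 0.748, 0.486 and 0.782 CPM in Meevs, and that of vdrb was 4.46, 4.45 and 3.52 CPM against 1.5, 1.2 and 1.13 CPM. Neither receptor's groups overlapped, as in 30.5% of all tested genes with Meevs below. The differences were -1.68 ± 0.24 and -1.70 ± 0.23 (edgeR adjusted p = 1.98e-06 and 9.47e-07). Of the 25 tested genes of vitamin D and retinoid metabolism 17 were higher and 4 lower, with a median of 0.37. Among the higher genes were the retinoic acid hydroxylase cyp26a1 (0.54 ± 0.09) and lrata (0.63 ± 0.11), for the enzyme that esterifies retinol.

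All 5 Argonaute genes of the small RNA machinery were lower in Meevs, as was dicer1, whereas drosha was not called (-0.08, edgeR adjusted p = 0.409). Argonaute proteins carry microRNAs and small interfering RNAs to their targets, Dicer cuts the precursors of those RNAs, and LIN28 proteins block the maturation of let-7. The gene ago1 (ENSDARG00000092644, chromosome 16, 51084472 to 51151993) was at 16.5, 15.6 and 13.3 CPM in wild type and 3.03, 2.25 and 2.04 CPM in Meevs (-2.64 ± 0.20, edgeR adjusted p = 2.05e-10). For ago2 the levels were 8.06, 6.90 and 4.91 CPM in wild type and 1.08, 1.46 and 1.87 CPM in Meevs (-2.19 ± 0.23). For ago3a they were 7.58, 7.60 and 5.42 CPM against 2.24, 1.48 and 1.26 CPM (-2.05 ± 0.24). In each of the 3 genes the lowest wild type library lay above the highest Meevs library, as in 30.5% of all tested genes. That was a condition of the ranking by size, set out further on, in which these 3 genes stand. The remaining Argonaute genes of the list, ago3b (-0.93) and ago4 (-0.92), were called lower as well. The level of dicer1 went from 80.9 ± 1.49 to 44.3 ± 3.52 CPM (mean ± SD, n = 3), a log2 fold change of -0.87 ± 0.09. The let-7 regulator lin28b fell from 3.83 ± 0.122 to 1.11 ± 0.329 CPM (-1.83 ± 0.21). Also lower were lin28a (-0.66) and the DNA methyltransferase genes dnmt3aa (-1.70), dnmt3ab (-0.61) and dnmt3ba (-0.50). The list of polycomb, histone and small RNA genes as a whole had 10 higher and 13 lower members of 35. Its polycomb subunit gene eed was higher (0.78 ± 0.09), and so were histone variant genes such as h2az2a (0.49) and h2az2b (0.65). The span offset gave 8 and 15.

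**Figure D3:**
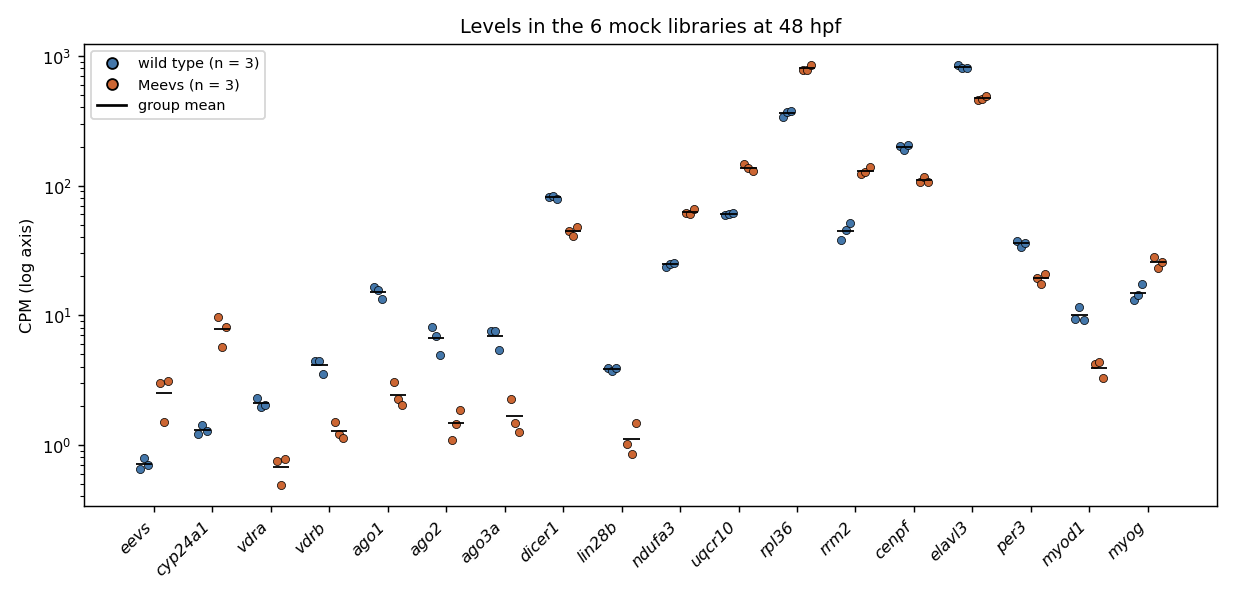
CPM on a log axis (vertical) of 18 genes (horizontal axis) in each of the 3 wild type (blue) and 3 Meevs (orange) mock libraries at 48 hpf, with a black line at each group's mean. The 18 genes were picked from called genes named in the text, and in all of them the groups are apart. Of all tested genes 31.0% had Meevs above without overlap and 30.5% had it below. The gene ago1 lies at 13.3 CPM or more in wild type and at 3.03 CPM or less in Meevs.

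Oxidative phosphorylation runs through complexes whose subunits come from both the nuclear and the mitochondrial genome, and the parts from the 2 genomes did not move alike. Of 79 tested nuclear genes 76 were higher in Meevs and none was lower, with a median log2 fold change of 0.80. The exceptions were sdhda, ndufs1 and ndufs8a, at -0.21, -0.03 and 0.12. The complex I subunit gene ndufa3 (ENSDARG00000041400, chromosome 16, 5717760 to 5721386) was at 23.7, 24.9 and 25.4 CPM in wild type and 61.5, 60.8 and 65.5 CPM in Meevs (1.34 ± 0.09, edgeR adjusted p = 9.63e-11). The complex III gene uqcr10 stood at 59.4, 60.6 and 61.6 CPM in wild type and 146, 136 and 130 CPM in Meevs (1.18 ± 0.10). These groups are more than 30 CPM apart in each gene, against a spread of a few CPM among wild type replicates. Rises of a like size were measured in ndufa11 of complex I (1.13 ± 0.08), uqcrq of complex III (1.12 ± 0.09) and atp5f1e of the ATP synthase (1.11 ± 0.09). Summed over the 79 genes, the level was 7307 to 7751 CPM in wild type and 12262 to 13421 CPM in Meevs.

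Of the 13 protein genes of the mitochondrial genome 3 were higher and 5 lower. Their summed level after TMM scaling overlapped between the groups, at 23709 to 25079 CPM in wild type and 23658 to 25885 CPM in Meevs. As a share of the unscaled counts, all mitochondrially encoded genes did not overlap, at 2.72% to 2.88% in wild type and 2.34% to 2.69% in Meevs. The complex I gene mt-nd4l went from 254, 270 and 266 CPM in wild type to 130, 161 and 142 CPM in Meevs (-0.87 ± 0.08, edgeR adjusted p = 2.53e-09). The complex I genes mt-nd5 (-0.67 ± 0.08) and mt-nd4 (-0.39 ± 0.08) were lower too. In contrast mt-nd3, also of complex I, was higher by 0.49 ± 0.09 and the cytochrome oxidase gene mt-co2 by 0.46 ± 0.08. Under the span offset the nuclear list kept 75 higher members and a median of 0.56, and the mitochondrial list had 1 higher and 9 lower, with mt-co2 no longer called (edgeR adjusted p = 0.0636).

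Cytosolic ribosomal proteins formed the other uniform group. Of 84 tested genes 81 were higher and none was lower, with a median of 0.71, and the summed level rose from 68091 to 74874 CPM in the wild type libraries to 109768 to 117750 CPM in Meevs. The large subunit gene rpl36 was at 338, 372 and 376 CPM in wild type and 780, 776 and 851 CPM in Meevs (1.15 ± 0.10, edgeR adjusted p = 2.47e-09). The small subunit genes rps20 (1.03 ± 0.10) and rps15a (0.98 ± 0.09) and the large subunit gene rpl30 (0.96 ± 0.09) followed. Retrocopies of ribosomal protein genes can share reads with them, and the symbol rpl37 is given to 2 identifiers, one at 1.01 and the other at 0.13. The span offset left 77 higher and none lower, with a median of 0.46.

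**Figure D4:**
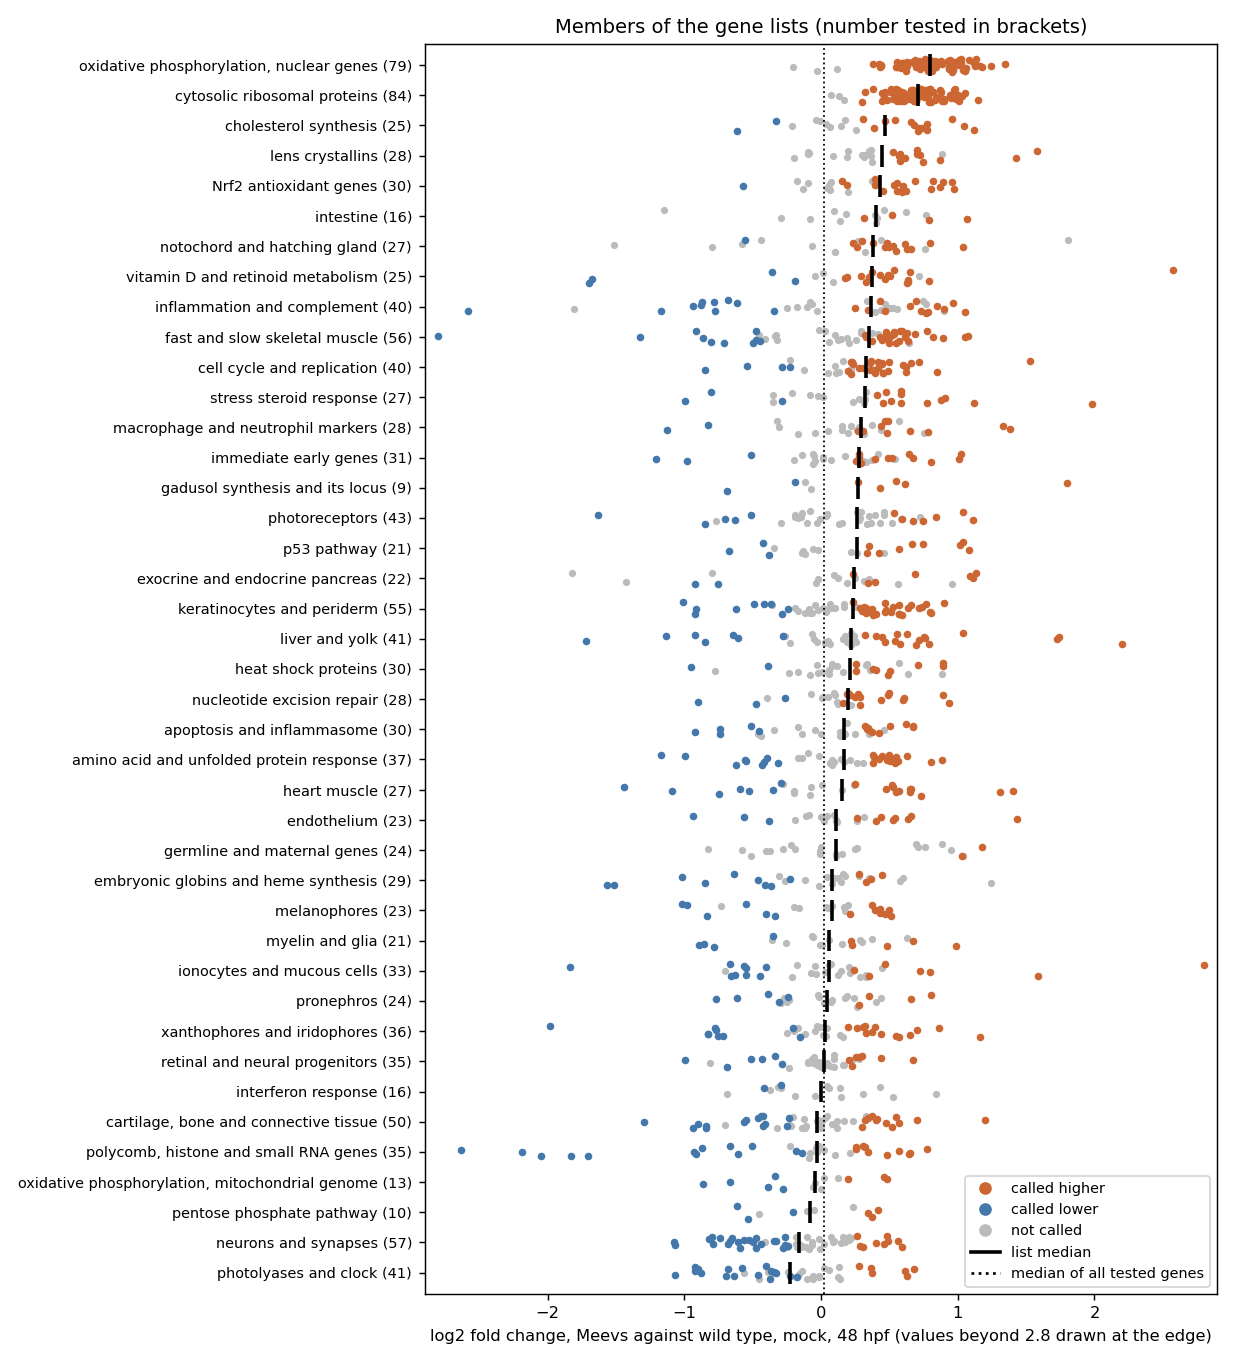
Log2 fold change of Meevs against wild type (horizontal axis) of each tested member of 41 gene lists (vertical axis, ordered by median). Members called higher are orange, those called lower blue and the rest grey; the black line is the list's median and the dotted line the median of all genes. The nuclear genes of oxidative phosphorylation (median 0.80) and the ribosomal protein genes (0.71) lie almost wholly to the right, and the clock and neuronal lists have the lowest medians (-0.22 and -0.16).

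Genes of the cell cycle were mostly higher. Of 40 members 27 were higher and 4 lower, with a median of 0.33, and the span offset gave 19 and 4, with a median of 0.18. One identifier of the ribonucleotide reductase gene rrm2 (chromosome 19), which supplies nucleotides for replication, was at 37.8, 45.6 and 51.5 CPM in wild type and 123, 127 and 138 CPM in Meevs (1.53 ± 0.23, edgeR adjusted p = 4.64e-06). That symbol is given to 2 identifiers, between which reads could be split, and the other was at 132, 131 and 156 CPM in wild type and 133, 130 and 95.9 CPM in Meevs, not called (-0.23 ± 0.16, edgeR adjusted p = 0.259). The mitotic kinase gene aurkb went from 58.2 ± 2.01 to 105 ± 3.95 CPM (0.85 ± 0.08), and birc5a, which encodes its partner survivin, was higher by 0.66 ± 0.10. The 4 lower members were cenpf, a kinetochore gene (-0.85 ± 0.08), mki67, for the proliferation antigen Ki-67 (-0.54 ± 0.07), ccnd1 (-0.28) and bub1 (-0.23). Markers of dividing cells therefore went both ways, since the level of mki67 was 643 to 677 CPM in wild type and 441 to 471 CPM in Meevs.

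Of 28 nucleotide excision repair genes 15 were higher and 3 lower. Among the higher were the single-strand binding subunits rpa3 (0.93 ± 0.12) and rpa2 (0.61 ± 0.09) and the TFIIH subunits gtf2h5 (0.89 ± 0.10) and gtf2h2 (0.60 ± 0.09), whereas 1 of 2 identifiers of gtf2h4, of the same complex, was lower (-0.90 ± 0.09). Of 21 genes of the p53 pathway 9 were higher and 3 lower, among the higher the growth arrest genes gadd45ba (1.08 ± 0.11) and gadd45ab (1.03 ± 0.12) and the death gene pmaip1 (1.02 ± 0.14), which encodes Noxa. The counts were 8 higher and 6 lower with span as an offset. In the list of apoptosis and inflammasome genes 10 of 30 were higher, such as mcl1a, which protects from death (0.67 ± 0.07), and 1 of 2 identifiers named baxa, which promotes it (0.43 ± 0.06). The 5 lower members included the survival gene bcl2a (-0.92 ± 0.15) and the caspases casp6a (-0.74 ± 0.12) and casp2 (-0.51 ± 0.09).

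Antioxidant genes were higher as a group. Of 30 tested genes of the Nrf2 list 20 were higher and 1 lower, the transporter abcc2, with a median of 0.43, and the span offset gave 18 and 2. The copper-zinc superoxide dismutase gene sod1 was at 26.2, 26.4 and 27.3 CPM in wild type and 53.3, 54.3 and 49.2 CPM in Meevs (0.97 ± 0.10, edgeR adjusted p = 1.40e-08). The glutathione peroxidase gene gpx4b (0.89 ± 0.08), 1 of 2 identifiers of the ferritin gene fthl27 (0.68 ± 0.08) and the peroxiredoxin genes prdx2 (0.56 ± 0.07) and prdx6 (0.59 ± 0.08) were higher too. In sod1 the groups were 21.9 CPM or more apart.

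Protein folding and amino acid stress genes were split. Of 37 members 15 were higher and 9 lower. The amino acid response factors atf4a (0.56 ± 0.07) and atf4b (0.54 ± 0.06), the glutathione-degrading enzyme chac1 (0.80 ± 0.08) and the disulfide isomerase pdia6 (0.89 ± 0.09) were higher, and the amino acid transporter slc7a5 was lower (-1.17 ± 0.14). Of 30 heat shock genes 9 were higher (30.0%, against 26.5% of all genes), among them the mitochondrial chaperonin pair hspe1 (0.90 ± 0.08) and hspd1 (0.49 ± 0.08). The transcription factor that drives such genes, hsf1, was lower, at 20.3, 23.3 and 19.4 CPM in wild type and 10.1, 10.9 and 11.6 CPM in Meevs (-0.95 ± 0.12). With hspb8 it made the 2 lower members (6.67%, against 26.2% of all genes). The higher count was 14 without wild type replicate 2. Of 31 immediate early genes 12 were higher and 3 lower. The higher ones included ier2a (1.01 ± 0.11), ier2b (1.02 ± 0.15) and the proto-oncogenes myca (0.49 ± 0.07) and mycb (0.52 ± 0.08), and the AP-1 gene jund was lower (-1.21 ± 0.12). Under the span offset heat shock genes had 7 higher and 6 lower members, with hsp90b1 no longer called (edgeR adjusted p = 0.0726), and immediate early genes 7 and 7.

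Genes of sterol synthesis leaned higher. Cholesterol synthesis had 14 higher and 2 lower of 25, with a median of 0.46. Leading genes were sqlea (1.04 ± 0.15) and lss (1.12 ± 0.19), for the enzymes that oxidise and cyclise squalene, nsdhl (0.96 ± 0.15), for a later demethylation step, and mvda (0.74 ± 0.11) of the mevalonate pathway. The level of lss was 1.64, 2.54 and 1.46 CPM in wild type and 3.81, 4.73 and 3.56 CPM in Meevs. In the list for the steroid stress response 12 of 27 were higher (44.4%) and 3 lower (11.1%). Its median span was 6.93 kb, and of all genes spanning up to 10 kb 39.3% were higher and 10.3% lower. There star, which brings cholesterol into mitochondria for steroid synthesis, was higher (0.91 ± 0.15), as were the glucocorticoid targets tsc22d3 (0.59 ± 0.11), sgk1 (0.48 ± 0.07) and cebpd (0.77 ± 0.09), and ddit4, another such target, was lower (-1.0 ± 0.17). Under the span offset the steroid list had 7 higher and 3 lower.

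Circadian and light-response genes had the lowest median of all lists, -0.22. Zebrafish cells hold clocks that light sets directly, through the cry and per genes and the factors that bind their promoters. Of 41 photolyase and clock genes 17 were lower and 6 higher. The period gene per3 was at 37.2, 33.8 and 36.1 CPM in wild type and 19.5, 17.5 and 20.8 CPM in Meevs (-0.90 ± 0.11, edgeR adjusted p = 2.05e-07). The activator clocka (-1.07 ± 0.17) and the orphan receptors rorcb (-0.92 ± 0.09) and roraa (-0.92 ± 0.11), which drive the activating arm, were lower as well. The cryptochrome cry4 was higher (0.63 ± 0.09), and the 6-4 photolyase gene cry5 was higher by 0.62. The span offset gave 18 lower and 5 higher. The labels used here give the age of the embryos but no clock time of collection.

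In the nervous system most called markers were lower. Of 57 neuronal and synaptic genes 23 were lower and 9 higher, with a median of -0.16. The RNA-binding protein gene elavl3, a marker of neurons, was at 845, 808 and 810 CPM in wild type and 458, 466 and 491 CPM in Meevs (-0.80 ± 0.08, edgeR adjusted p = 1.09e-08). The vesicle protein gene vamp2 (-1.07 ± 0.12), the glutamate transporter gene slc17a6b (-0.65 ± 0.07), 1 of 2 identifiers of the complexin gene cplx2 (-0.67 ± 0.08) and the glutamate receptor gene gria1a (-0.82 ± 0.10) were lower too. Higher members included gap43 of growing axons (0.56) and snap25b of the synaptic vesicle complex (0.48). The span offset gave 17 lower and 13 higher. Summed over the list, the neuronal level was 4864 to 5269 CPM in wild type and 4409 to 4582 CPM in Meevs. Genes with high levels weigh most in that sum, among them elavl3, at 808 to 845 CPM in wild type and 458 to 491 CPM in Meevs.

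Neural progenitor and glial lists went both ways. Among 35 progenitor genes 7 were higher (20.0%, against 26.5% of all genes) and 6 lower (17.1%, against 26.2%). The receptor notch3 was at 514, 547 and 547 CPM in wild type and 263, 253 and 290 CPM in Meevs (-0.99 ± 0.10), and notch1a (-0.69 ± 0.13), the intermediate filament gene nes (-0.51 ± 0.09) and the eye factor pax6b (-0.43 ± 0.08) were lower with it. The fatty acid binding gene of radial glia fabp7a was higher (0.67 ± 0.12). Under the span offset this list had 2 higher and 18 lower members. Of 21 myelin and glial genes 5 were higher and 4 lower. The proteolipid gene plp1a (-0.86 ± 0.10) and the glutamate transporter slc1a3b (-0.79 ± 0.10) were lower, and the glutamine synthetase gene glulb (0.48 ± 0.06) and the myelin claudin cldnk (0.99 ± 0.19) were higher. Without Meevs replicate 3 the higher members were 8, and with span as an offset 4 were higher and 5 lower.

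In the eye, 12 of 28 lens genes were higher and none was lower. The crystallin gene cryba2b was at 207, 255 and 214 CPM in wild type and 329, 477 and 293 CPM in Meevs (0.70 ± 0.15, edgeR adjusted p = 0.000281), and cryba4 (0.87 ± 0.20) and the lens membrane gene lim2.1 (0.70 ± 0.16) were higher. Meevs replicate 2 was the highest library, and without it 6 lens genes were higher and 3 lower. Summed lens levels overlapped between the groups, at 2639 to 3652 CPM in wild type and 2997 to 6002 CPM in Meevs, and crystallin copies can share reads. Of 43 photoreceptor genes 7 were higher, such as the extra-ocular rod opsin exorh of the pineal (0.84 ± 0.15) and the transducin subunit gngt2a (0.74 ± 0.18), and 5 were lower, such as tulp1a (-0.85 ± 0.21) and the outer segment gene rom1a (-1.63 ± 0.55). The call of gngt2a was lost with span as an offset (edgeR adjusted p = 0.0506) and that of rom1a in DESeq2 (adjusted p = 0.0868) and in 3 of the 6 fits without 1 library. Those counts fell to as low as 3 higher (without wild type replicate 1 or 3) and 1 lower (without wild type replicate 1 or Meevs replicate 1).

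Skeletal muscle genes leaned higher, with 27 higher and 10 lower of 56 and a median of 0.35. Their summed level overlapped between the groups, at 71729 to 85989 CPM in wild type and 78833 to 104163 CPM in Meevs. The regulators of muscle fate parted. The early factor myod1 was at 9.35, 11.5 and 9.13 CPM in wild type and 4.22, 4.34 and 3.26 CPM in Meevs (-1.32 ± 0.14, edgeR adjusted p = 3.17e-08). Its later partner myog, which acts as muscle cells differentiate, was at 13, 14.3 and 17.5 CPM against 27.8, 23.2 and 25.5 CPM (0.78 ± 0.14). Both genes separated the groups, in opposite directions, as 31.0% of all tested genes did with Meevs above and 30.5% with Meevs below. Among the sarcomere genes the troponins tnni2b.1 (0.82 ± 0.10) and tnnc1b (0.89 ± 0.12) were higher, while the giant protein genes ttn.2 (-0.92 ± 0.16), ttn.1 (-0.86) and neb (-0.81) were lower. Chosen after its values were seen, 1 of the 2 identifiers with the symbol actc1a (chromosome 19) was at 10.9, 31.9 and 0.602 CPM in wild type and 0.561, 0.588 and 0.695 CPM in Meevs (-4.56 ± 1.11). Its groups overlapped, because wild type replicate 3 lay among the Meevs libraries. The span offset gave 17 higher and 11 lower muscle genes.

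In the heart list 12 of 27 were higher and 7 lower. Higher were genes of contraction and fuel use, fabp3 (0.73 ± 0.08), cmlc1 (0.66 ± 0.11) and tnnt2a (0.65 ± 0.12), and the transcription factor hand2 (0.52 ± 0.08), and lower was the transcription factor tbx20 (-1.09 ± 0.16). The summed level of this list was 633 to 692 CPM in wild type and 828 to 902 CPM in Meevs. Of 50 genes of cartilage, bone and connective tissue 12 were higher (24.0%, against 26.5% of all genes) and 14 lower (28.0%, against 26.2%). The cartilage regulator sox9a went from 54.3, 47.9 and 52.0 CPM to 29.2, 24.2 and 29.6 CPM (-0.90 ± 0.10), and the bone regulator sp7 was lower with it (-0.94 ± 0.15). The collagen-binding gene sparc was higher (0.57 ± 0.07), whereas the matrix genes hapln1a (-0.42 ± 0.06) and col12a1b (-0.84 ± 0.14) were lower. Under the span offset 16 were higher and 9 lower. Of 27 notochord and hatching gland genes 14 were higher and 1 lower, the caveolin cav1 (-0.55 ± 0.07), and with span as an offset 9 and 3. Among the higher were xbp1, a regulator of secretory cells (0.48 ± 0.07), and agr2 (0.80 ± 0.09), a disulfide isomerase gene that 3 of the lists share.

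Of 55 keratinocyte and periderm genes 27 were higher and 9 lower. The adhesion gene epcam was at 227, 228 and 232 CPM in wild type and 383, 360 and 342 CPM in Meevs (0.66 ± 0.08), and the calcium-binding gene icn was higher by 0.90 ± 0.11. Lower were itgb4, an integrin of hemidesmosomes (-0.92 ± 0.10), and evpla, for the envoplakin of the outer layer (-0.92 ± 0.10). The keratin genes krt17 (0.74) and krtt1c19e (0.76) were among the higher. The span offset gave 16 higher and 10 lower. Of 33 markers of ionocytes and mucous cells 7 were higher (21.2%, against 26.5% of all genes) and 9 lower (27.3%, against 26.2%). Among the latter were the sodium bicarbonate cotransporter slc4a4b (-0.67 ± 0.13), not called with span as an offset (edgeR adjusted p = 0.0804), and the mucin muc5.1 (-0.55 ± 0.12). The counts were 8 higher and 6 lower with span as an offset. The ammonia transporter gene rhcga, chosen after its values were seen, was at 0.161, 0.127 and 0.158 CPM in wild type and 1.64, 0.332 and 3.04 CPM in Meevs (3.33 ± 0.76, edgeR adjusted p = 0.000626). Its Meevs libraries lay far apart from one another.

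Pigment cell lists had members in both directions. Of 23 melanophore genes 8 were higher (34.8%, against 26.5% of all genes) and 6 lower (26.1%, against 26.2%). The melanin enzyme tyr (-0.98 ± 0.15) and the receptor kita (-1.02 ± 0.15) were lower, and the channel gene trpm1b was higher (0.51 ± 0.07). The transporter oca2 was lower by -0.55 ± 0.13 and was not called with span as an offset (edgeR adjusted p = 0.537). Of 36 xanthophore and iridophore genes 14 were higher and 9 lower. The lineage factors sox5 (-0.78 ± 0.06) and pax7a (-0.83 ± 0.11) were lower, and the neural crest factor foxd3 (0.57 ± 0.08) and the aldo-keto reductase gene akr1b1.1 (0.70 ± 0.09) were higher.

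Among liver and yolk genes the named apolipoproteins went both ways. Lower were the 3 named genes for apolipoprotein B, the core of yolk-derived lipoprotein particles. For apobb.1 (chromosome 20, 31269778 to 31285980) the levels were 5009, 5739 and 5080 CPM in wild type and 2322, 2478 and 2420 CPM in Meevs (-1.13 ± 0.14, edgeR adjusted p = 3.48e-07), and apobb.2 (-0.85 ± 0.10) and apoba (-0.92 ± 0.12) were lower with it. The apolipoprotein genes apom and apoea were higher. For apom the levels were 47.8, 50.5 and 53.6 CPM against 104, 93.7 and 115 CPM (1.04 ± 0.11), and apoea differed by 0.79 ± 0.11. In both genes with levels given here the groups did not overlap, in opposite directions. Of all tested genes 31.0% had Meevs above without overlap and 30.5% had it below. The microsomal transfer protein gene mttp, whose product loads lipid onto apolipoprotein B, was lower too (-0.64). Of the 41 genes 17 were higher and 7 lower, and with span as an offset 12 and 11.

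Among the other organs of the gut and trunk, 7 of 22 pancreas genes were higher and 2 lower. The somatostatin genes sst2 (1.09 ± 0.13) and sst1.2 (1.11 ± 0.14) and the glucagon gene gcga (0.69 ± 0.14) were higher, and the prohormone convertase pcsk2 was lower (-0.92 ± 0.13). Fitted with the span offset, 4 were higher and 4 lower. In the intestine list 4 of 16 were higher, among them the galectins lgals2a (0.52 ± 0.10) and lgals2b (0.79 ± 0.18). The glucose transporter slc5a1 (1.07 ± 0.42) overlapped between the groups and lost its call in 4 of the 6 fits without 1 library, with adjusted p up to 0.158. The forkhead gene foxd2, at 0.31 ± 0.07, turned to -0.01 with span as an offset. Of 24 pronephros genes 4 were higher and 5 lower, among the lower the endocytic receptors lrp2a (-0.77 ± 0.09) and cubn (-0.61 ± 0.16). The genes cubn, slc4a4a and pax8 were not called with span as an offset, and slc4a4a went from -0.39 ± 0.11 to 0.04. The kidney transcription factor gene pax8 was higher by 0.35, a call lost without wild type replicate 2 (edgeR adjusted p = 0.0636) or Meevs replicate 2 (0.0561). Without wild type replicate 1 or Meevs replicate 1 the higher members were 2, and with span as an offset 2 were higher and 2 lower.

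Of 29 genes of globins and heme synthesis 9 were lower and 4 higher, with a median of 0.08. The transferrin receptor tfr1a was at 25.5, 31.5 and 22.8 CPM in wild type and 7.63, 7.59 and 12.1 CPM in Meevs (-1.57 ± 0.22, edgeR adjusted p = 1.84e-06), and the mitochondrial iron importer slc25a37 was lower by -1.51 ± 0.28. The erythroid factor klf1 (-1.02 ± 0.18) and the spectrin gene sptb (-0.85 ± 0.08) were lower, and cpox of heme synthesis was higher (0.45 ± 0.10). Of 23 endothelial genes 8 were higher and 3 lower. The vessel genes aqp1a.1 (0.63 ± 0.09), egfl7 (0.66 ± 0.10) and plvapb (0.53 ± 0.09) were higher, and the junction cadherin cdh5 was lower (-0.56 ± 0.08). The endothelial gene clec14a was higher by 0.54 ± 0.10 and was not called with span as an offset (edgeR adjusted p = 0.0545).

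Of 28 myeloid markers 10 were higher (35.7%, against 26.5% of all genes) and 2 lower (7.14%, against 26.2%), with a median of 0.29. Their median span was 9.28 kb. Of all genes spanning up to 10 kb, 39.3% were higher and 10.3% lower, with a median of 0.28. The lysozyme gene lyz, an enzyme of neutrophils and macrophages, was at 17.8, 19.1 and 21 CPM in wild type and 52.5, 48.1 and 50.1 CPM in Meevs (1.38 ± 0.14, edgeR adjusted p = 2.69e-08). Higher too were mfap4 of macrophages (1.33 ± 0.24) and the metalloproteinase mmp9 (0.78 ± 0.15), while the receptor csf1ra was lower (-0.83 ± 0.18). Under the span offset 5 were higher and 3 lower, and nccrp1 was no longer called (edgeR adjusted p = 0.112). The summed myeloid level was 1217 to 1487 CPM in wild type and 1555 to 1673 CPM in Meevs. Without wild type replicate 1 or 2 or Meevs replicate 2 or 3 only 1 member was lower.

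Inflammation and complement genes had 13 higher and 10 lower members of 40, and 8 higher and 11 lower with span as an offset. The inhibitors of NF-kB signalling nfkbiaa (0.96 ± 0.11) and nfkbiab (0.70 ± 0.07) were higher, and another inhibitor gene, tnfaip3, was lower (-1.17 ± 0.17). The transcription factor stat3 was lower (-0.68 ± 0.10). The complement gene c3a.3 was at 7.34, 5.40 and 9.76 CPM in wild type and 1.91, 0.971 and 0.912 CPM in Meevs (-2.59 ± 0.30, edgeR adjusted p = 1.33e-07). It lies among near-identical C3 copies, between which reads could be split. Of 16 tested interferon response genes 2 were lower and none was higher, stat2 (-0.42 ± 0.14) and stat1a (-0.30 ± 0.12). Neither was called with span as an offset (edgeR adjusted p = 0.180 and 0.235) or without wild type replicate 1 (0.0840 and 0.176), and stat1a was also lost without wild type replicate 3 or Meevs replicate 2 or 3 (highest adjusted p = 0.245). With Meevs replicate 2 left out 1 interferon gene was higher. Of 24 germline and maternal genes, those that eggs and germ cells hold, 2 were higher, gdf3 (1.18 ± 0.28) and sycp3 (1.03 ± 0.32).

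Genes were ranked by size among those called, with an established symbol given to 1 identifier, groups that did not overlap and an average log2 CPM of at least 1. The highest after cyp24a1 was thy1, for a surface glycoprotein of neurons and other cells. It was at 11.8, 8.17 and 11 CPM in wild type and 35.3, 33.4 and 35.4 CPM in Meevs (1.74 ± 0.16, edgeR adjusted p = 4.15e-09). The neighbouring copies ponzr3 (1.62 ± 0.27) and ponzr4 (1.49 ± 0.26), between which reads could be shared, followed with pigbos1, for a mitochondrial microprotein (1.57 ± 0.14), and f7i, a coagulation factor VII copy (1.51 ± 0.15). Then came the brain fatty acid binding gene fabp7b (1.44 ± 0.17), ly97.3 (1.41 ± 0.20), tmem256 (1.40 ± 0.12), lyz and bicdl2l (1.38 ± 0.19). The last were ndufa3, the damage response gene gadd45bb (1.32 ± 0.16), the oxidase of protein folding ero1a (1.32 ± 0.27) and the vitamin E transfer protein gene ttpa (1.32 ± 0.21). Clone or locus placeholders made up 10 of the 15 highest genes when they were not left out.

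At the other end mxra5b, a matrix remodelling gene, was at 8.95, 9.95 and 7.03 CPM in wild type and 1.35, 1.23 and 1.43 CPM in Meevs (-2.71 ± 0.31, edgeR adjusted p = 1.10e-07). The gene ggact.2, for a gamma-glutamylamine cyclotransferase, was at 4.89, 6.86 and 3.99 CPM against 0.449, 1.18 and 0.652 CPM (-2.70 ± 0.50). The corepressor lcor went from 18, 12.8 and 11.6 CPM to 2.21, 2.48 and 2.13 CPM (-2.63 ± 0.20), and fam168a from 35.9, 33.1 and 28.0 CPM to 5.61, 5.34 and 6.65 CPM (-2.48 ± 0.15). That the groups were apart in all 4 was a condition of the ranking. Between them in rank lay the kinase MAP3K13 (-2.61 ± 0.23), c3a.3 and ago1, and after them ago2, the actin regulator mtss1lb (-2.14 ± 0.26), the ubiquitin ligase HECTD4 (-2.08 ± 0.24) and ago3a. The neuronal transcription factor onecut2 (-2.01 ± 0.31), the axon guidance receptor dcc (-1.97 ± 0.20), the integrin activator fermt2 (-1.95 ± 0.15) and the proteoglycan spock1 (-1.94 ± 0.19) completed the 15 lowest. Placeholders made up 2 of the 15 lowest when they were not left out.

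Some genes were read in one genotype and hardly at all in the other. At most 3 counts in every wild type library were found for 44 genes called higher in Meevs, and at most 3 counts in every Meevs library for 43 genes called lower. The guanine nucleotide exchange factor gene arhgef15 (chromosome 5, 54110853 to 54160809) had 3 counts in all over the wild type libraries and 42 to 150 counts per Meevs library, a ratio of 111 with a counting interval of 37.6 to 541. The placeholder zgc:158862 had 1 count in wild type and 141 in Meevs (ratio 159, counting interval 28.1 to 6323). The placeholder CR388079.3 was at 0 in all wild type libraries and at 14 to 20 counts in Meevs, which makes it at least 6.61-fold higher against a floor of 3 counts per library. In the other direction CABZ01034596.1 was at 0 in all Meevs libraries and at 33 to 61 counts in wild type, at least 12.2-fold lower. The placeholder si:dkey-13n23.3 had 85 counts in wild type and 1 in Meevs (ratio 75.4, counting interval 13.2 to 3012). The zinc finger gene znf988 on chromosome 4 had 103 and 5 (ratio 18.3, counting interval 7.58 to 57.5) and the cadherin cdh29 78 and 4 (ratio 17.3, counting interval 6.49 to 65.1). The ribosomal RNA entry AL935186.2 had 63 counts in Meevs, 3 to 41 per library, and 4 in wild type (ratio 17.8, counting interval 6.60 to 67.2), and its call was lost without Meevs replicate 2 (edgeR adjusted p = 0.0777). All intervals cover counting error only. In UVB embryos at 48 hpf the log2 fold change was -1.24 for znf988 and -1.54 for cdh29, against -4.08 and -4.01 in mock embryos. For arhgef15, zgc:158862, CR388079.3, CABZ01034596.1 and si:dkey-13n23.3 it was 5.83, 8.49, 7.25, -7.93 and -5.53 there. AL935186.2 was not called in UVB embryos at 48 hpf, mock embryos at 29 hpf or UVB embryos at 29 hpf (edgeR adjusted p = 0.0570, 0.135 and 0.252).

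The genotype difference was read again in libraries that the mock comparison at 48 hpf does not use. In UVB-exposed embryos at 48 hpf, where 28.5% of all tested genes were higher in Meevs and 27.4% lower, the 2 lists shared 4581 higher genes. These are 77.3% of the higher genes of the mock embryos and 72.0% of those of the UVB embryos. They shared 4782 lower genes, 81.8% and 78.3%. In mock embryos at 29 hpf, with 24.5% higher and 23.2% lower, the shared genes were 4424 higher (74.7% and 80.7%) and 4462 lower (76.3% and 86.1%). In UVB embryos at 29 hpf, with 50.3% of all genes called, they were 4230 higher (71.4% and 69.4%) and 3725 lower (63.7% and 72.5%). Genes called in the opposite direction were 31 and 34 against the UVB embryos at 48 hpf, 6 and 6 against the mock embryos at 29 hpf and 79 and 75 against the UVB embryos at 29 hpf. In all 4 genotype comparisons of the series, 3278 genes were called higher and 3008 lower, 95 and 326 of them at least 2-fold in each. All 4 comparisons have the same genotypes on the same library series.

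Genes described above were read at the other age and after exposure. Log2 fold changes are given for mock embryos at 48 hpf, then UVB embryos at 48 hpf, then mock embryos at 29 hpf. For ago1 the log2 fold change was -2.64, -2.24 and -2.78, for ndufa3 1.34, 1.25 and 1.18, and for the rrm2 identifier on chromosome 19 1.53, 1.29 and 1.19. For vdrb it was -1.70, -1.49 and -2.26, and for elavl3 -0.80, -0.89 and -0.70. The vitamin D hydroxylase cyp24a1 stood at 2.58, 2.75 and 1.01. The difference in eevs was 1.80, 0.71 and -0.02, and only the first of these 3 was called (edgeR adjusted p = 0.0810 and 0.982 for the others). In UVB embryos at 29 hpf it was 2.88, and called. The muscle regulator myog stood at 0.78, 0.28 and -0.06, and again only the first was called. None of these genes was called in the test of the difference between the ages in mock embryos, given below. There the edgeR adjusted p was 0.138 for cyp24a1 and 0.369 for eevs.

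**Figure D5:**
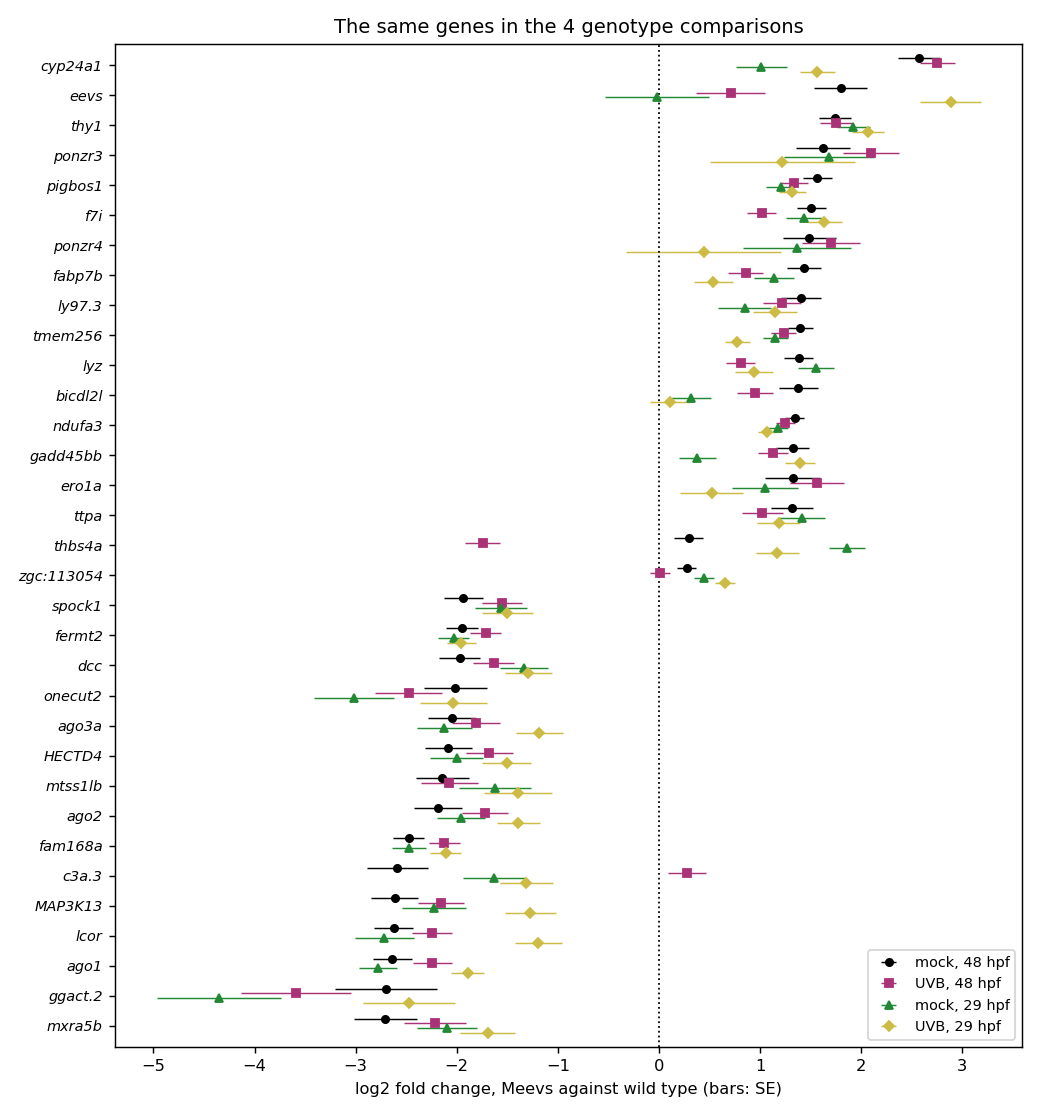
Log2 fold change ± SE of Meevs against wild type (horizontal axis) in mock and UVB embryos at 48 and 29 hpf for eevs, zgc:113054, thbs4a and the 15 highest and 15 lowest genes of the mock comparison at 48 hpf (vertical axis). The 4 symbols of a gene mostly lie together on one side of zero; c3a.3 stands at -2.59 in mock and 0.28 in UVB embryos at 48 hpf, and thbs4a at 1.86 in mock embryos at 29 hpf and -1.75 in UVB embryos at 48 hpf.

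Some genes had values of another sign in UVB embryos of the same age. The complement gene c3a.3 was at 55.2, 56.7 and 37.3 CPM in wild type and 57.1, 51.8 and 71.7 CPM in Meevs after UVB (0.28 ± 0.19, edgeR adjusted p = 0.211). The groups overlapped there. In mock embryos they were apart, but that was a condition of the ranking by size in which c3a.3 stands. For stat3 the difference was -0.68 in mock and 0.34 in UVB embryos, for ddit4 -1.0 and 0.82, and for the pineal opsin exorh 0.84 and -0.80, all called. The difference between the mock and the UVB comparison was not tested here for these genes.

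Whether the genotype difference in mock embryos changed between 29 and 48 hpf was tested as an interaction. In edgeR 2 of 22340 genes were called (0.00895%), against 1613 with an unadjusted p under 0.05, and in DESeq2 36 were called. The 2 genes were thbs4a and si:dkey-65b12.6, both on chromosome 5. The thrombospondin gene thbs4a (51909740 to 51945554), for an extracellular matrix protein, was at 1.79, 2.49 and 3.01 CPM in wild type and 8.80, 9.93 and 7.53 CPM in Meevs at 29 hpf. At 48 hpf it was at 9.84, 9.28 and 10.6 CPM in wild type and 13.4, 11.6 and 11.6 CPM in Meevs. The groups were apart at both ages, but the log2 fold change went from 1.86 ± 0.18 to 0.30 ± 0.14, and only the first was called (edgeR adjusted p = 1.02e-08 and 0.0892). In UVB embryos at 48 hpf thbs4a was lower in Meevs (-1.75). Without Meevs mock replicate 3 at 29 hpf 13 genes were called in the interaction, without Meevs mock replicate 1 at 29 hpf 4, and without Meevs mock replicate 2 at 48 hpf 6.

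Genes that change between 29 and 48 hpf in UVB-exposed embryos were also read in the genotype comparison. Between 29 and 48 hpf 68.5% of all tested genes were called in wild type UVB libraries and 68.8% in Meevs UVB libraries. These shares belong to the change between the ages in exposed embryos, where age and time since the exposure cannot be told apart. In the genotype comparison of mock embryos at 48 hpf 26.5% of all tested genes were higher and 26.2% lower, with a median of 0.02. The 200 genes with the largest rise from 29 to 48 hpf were chosen on wild type UVB libraries, which are not in the mock comparison. They had 63 higher and 51 lower members in Meevs and a median of 0.12. The 200 with the largest fall had 54 higher and 33 lower and a median of 0.08. Chosen on Meevs UVB libraries instead, the rising genes had 66 higher and 50 lower (median 0.14) and the falling genes 43 higher and 47 lower (median -0.01).

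Across the genome the calls were spread evenly. On the 25 chromosomes between 21.6% and 29.7% of the tested genes were higher and between 20.6% and 29.3% lower. Chromosome 4 had the lowest share in each direction, 21.6% and 20.6%, and also the largest share of differences of at least 2-fold, 13.1%, against 5.41% to 9.82% on the other 24. Of the 21118 protein-coding genes 5694 were higher and 5667 lower.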

How the data were processed

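Whole embryos were extracted with Trizol and sequenced from a directional polyA kit, per the labels' protocols. The authors deposited raw read counts per gene, made with cutadapt 1.16, STAR 2.7.9a and featureCounts 1.6.3 on GRCz11, per the submitters' processing notes. No source used here says whether strand was used in counting, which leaves overlapping and antisense genes uncertain. The authors also deposited log2 fold changes and adjusted p-values for this comparison, per the file headers, with DESeq2 1.36.0 named in the notes. In the authors' deposited table the higher genes were 5949 in number and the lower 5756. Of the genes called here 98.0% were called the same way in that table and none the opposite way.

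Counts were fitted here in edgeR 4.0.16 (R 4.3.3, limma 3.58.1) with filterByExpr, TMM scaling, 1 mean per group over all 24 libraries and its quasi-likelihood test. Benjamini-Hochberg adjustment ran over all tested genes, and a gene was called when its adjusted p was under 0.05. The standard error is the absolute log2 fold change over the root of F. The fit was tested on simulated data with 200 genes changed, as many up as down. It recovered 84.5% of the 2-fold and 55.6% of the 1.5-fold changes, and 7 of its 144 calls were false. In the real data 52.7% of genes were called, so the simulation cannot show how the scaling holds there. Gene names and coordinates came from the deposited annotation; 393 identifiers repeat a symbol. Lists held 1435 symbols, of which 1316 matched. Each member of a list could be named if it was among the 5 with the smallest p, besides the 15 largest changes per direction, interaction genes, and 5 floor genes per direction; further members are named to illustrate a count. The members and lists were chosen with earlier results of these data known. DESeq2 1.42.0, its size factors, no filter, the 6 libraries alone, a replicate block, leaving out each library and a gene span offset were tried as alternatives. The number of libraries limits the precision, and counting intervals are exact 95% intervals. One listed gene is not reported here.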

Additional observations from a re-analysis of the deposited data

Results flagged for a closer look

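The genotype difference in mock embryos differed between 29 and 48 hpf in 2 genes by the test of the difference itself. For si:dkey-65b12.6 (chromosome 5, 41826958 to 41845116), a placeholder without an established name, the levels at 29 hpf were 12.3, 12.9 and 11.8 CPM in wild type and 16.4, 22.4 and 16.7 CPM in Meevs. At 48 hpf they were 97.8, 94.4 and 90.8 CPM in wild type and 66.8, 58.6 and 60.3 CPM in Meevs. The groups were apart at both ages and changed order. The log2 fold change was 0.58 ± 0.12 at 29 hpf and -0.61 ± 0.10 at 48 hpf, a difference of -1.19 ± 0.15 (edgeR adjusted p = 0.000582, 0.000414 to 0.00439 over the edgeR alternatives).

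For thbs4a the difference between the ages was -1.56 ± 0.23 (edgeR adjusted p = 0.00347, at most 0.0340 over the alternatives). Its higher level in Meevs at 29 hpf was called and the smaller one at 48 hpf was not. Its difference at 48 hpf, 0.30, was called with only the 6 mock libraries of that age (0.29, edgeR adjusted p = 0.0161) and with the gene span offset (0.48, edgeR adjusted p = 0.00839).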

How the results depend on the processing

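The counts of genes higher and lower in Meevs moved by less than 1.5 times under every alternative run. Without 1 library in turn they were 5061 to 5615 higher and 5110 to 5530 lower, and at least 2-fold 519 to 611 higher and 1166 to 1375 lower. The number of interaction genes was 36 in DESeq2, where 3152 adjusted p-values were not given, and ranged from 2 to 13 without 1 library in turn. It was 13 without Meevs mock replicate 3 at 29 hpf. The cause was not tested. With the gene span offset slc4a4a turned to 0.0402 and foxd2 to -0.0108, and neither was called. Another 15 of 230 named genes lost their call. That offset also moved 24 of 82 list counts by over 1.5 times, and asking for at least 1.5-fold moved 59. The fit on the 6 libraries alone gave 6054 higher and 6208 lower genes and has no interaction value.

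The replicate numbers of the labels did not pair the libraries, since same-numbered Meevs and wild type libraries had correlations of deviations of -0.13, -0.15 and -0.06, and not every library correlated best with its own number. With the replicate number as a block 5849 genes were higher and 5816 lower, and 3 were called in the interaction. It changed the call of none of the 230 named genes.

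Depth limits what can be said of genes near the floor of 3 counts per library, where a fold change depends on single reads.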

Other observations

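Some short RNA entries were read in these polyA libraries. Of 51 tested snoRNA entries 12 were higher (23.5%, against 26.5% of all genes) and none lower (against 26.2%), with a median log2 fold change of 0.58. Of 32 miRNA entries, which stand for hairpin or host transcripts in such libraries, 9 were higher (28.1%) and none lower (median 0.65). All 4 tested miscellaneous RNA entries were higher (median 2.46). Of 12 mitochondrial transfer RNA entries none was higher and 1 lower. All these calls are at an edgeR adjusted p under 0.05. In contrast 3 of 20 ribosomal RNA entries were higher and 8 lower, and of 505 long intergenic RNAs 94 were higher and 107 lower. Host genes and these entries can overlap, and the part of gene span, polyA selection and library series in these values was not tested.

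Called differences of at least 2-fold were commonest at low levels. They were found in 18.2% of the genes tested below 0 log2 CPM and in 1.70% of those above 6 log2 CPM.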
